A study of Mus musculus with 39 samples.

Results

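The gubernaculum of INSL3-KI and WT mice was compared at postnatal day 8 (P8) over all Ensembl genes, in 6 of the 39 RNA-seq libraries of the study, 3 per genotype. The 6 libraries were chosen by age, tissue and genotype alone, and they stand in the same count table. Both groups were male mice of the C57BL/6J background. WT mice carried the mouse Insl3 gene, whereas INSL3-KI mice carried the cDNA of the minke whale, Balaenoptera acutorostrata, at that locus in place of the mouse gene, so that the whale hormone was made under the mouse promoter. The allele is present in every cell of the animal and from conception, so the comparison is of tissue that had developed with the whale hormone. How many animals gave a library and which part of the tissue was taken are not given in the sources used here.

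INSL3 is a peptide hormone of the Leydig cells of the testis. It acts through RXFP2, a G protein-coupled receptor that raises cAMP, on the gubernaculum, the ligament that joins the lower pole of the testis and the tail of the epididymis to the inguinal abdominal wall. The gubernaculum of the mouse has a mesenchymal core and an outer layer of striated muscle, the cremaster, which forms as the testis descends.

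The first 300 bases of the coding sequences that the mice differ by, from the start codon, are shown because they decide which reads can be counted as Insl3. Capitals mark a run of 12 bases that is the same in both, and no shared run is longer.
Mouse Insl3: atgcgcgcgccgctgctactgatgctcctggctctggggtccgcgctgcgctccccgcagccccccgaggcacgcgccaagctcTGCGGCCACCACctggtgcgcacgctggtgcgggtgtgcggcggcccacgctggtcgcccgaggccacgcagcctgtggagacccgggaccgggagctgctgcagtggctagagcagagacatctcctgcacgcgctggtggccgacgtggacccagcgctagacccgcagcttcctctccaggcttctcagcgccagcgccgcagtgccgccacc
Minke whale INSL3: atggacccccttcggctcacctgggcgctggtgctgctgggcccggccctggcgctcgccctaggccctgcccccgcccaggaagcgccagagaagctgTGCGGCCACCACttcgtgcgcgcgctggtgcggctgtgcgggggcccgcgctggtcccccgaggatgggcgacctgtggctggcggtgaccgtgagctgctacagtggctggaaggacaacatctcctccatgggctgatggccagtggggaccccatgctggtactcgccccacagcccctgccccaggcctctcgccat
In a global alignment of the whole coding sequences (369 bases in mouse and 402 in whale), 267 of 369 aligned base pairs were identical (72.4%), and 33 further columns held a gap. The mouse gene lies at chr8:71689214-71690575 on the plus strand of GRCm38 and shares exon bases with Jak3 on the same strand. In testis at P8, reads counted as mouse Insl3 numbered 2922, 3524 and 2722 in WT and 33, 15 and 26 in INSL3-KI. In gubernaculum at P8 they numbered 87, 25 and 29 in WT and 0 in all 3 INSL3-KI libraries, so the counts followed the labels in both tissues. WT gubernaculum was at least 17.3-fold higher, taking a floor of 3 counts per library for the undetected group.

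Total counts ranged from 35734365 to 37707231 in WT and from 29861447 to 34142846 in INSL3-KI, and between 95.3% and 97.5% of them fell on Ensembl genes. Of 15614 genes tested with edgeR's quasi-likelihood test, 1504 were lower (9.63%) and 2247 higher (14.4%) in INSL3-KI, calling genes whose adjusted p was under 0.01 and whose level differed at least 2-fold. The counts of calls per list given below are to be read against these 2 shares of all genes. Over all genes tested the log2 fold changes had a median of 0.0225. Libraries of the same group correlated at r between 0.966 and 0.982 across genes and those of different groups at r between 0.741 and 0.792. The groups did not overlap in 10140 genes (64.9% of those tested). Scaled by library size alone, the median gene moved to 0.338 and the lower genes made up 26.5% of the calls instead of 40.1%, so small log2 differences depend on the scaling. With the P23 gubernaculum libraries in the same fit, 950 genes were lower and 1076 higher. Levels below are CPM, counts relative to the library total after scaling by TMM factors, and levels of different genes are compared only as FPKM, which accounts for transcript length. In bulk tissue, fewer cells of a type and less RNA per cell cannot be told apart.

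**Figure D1:**
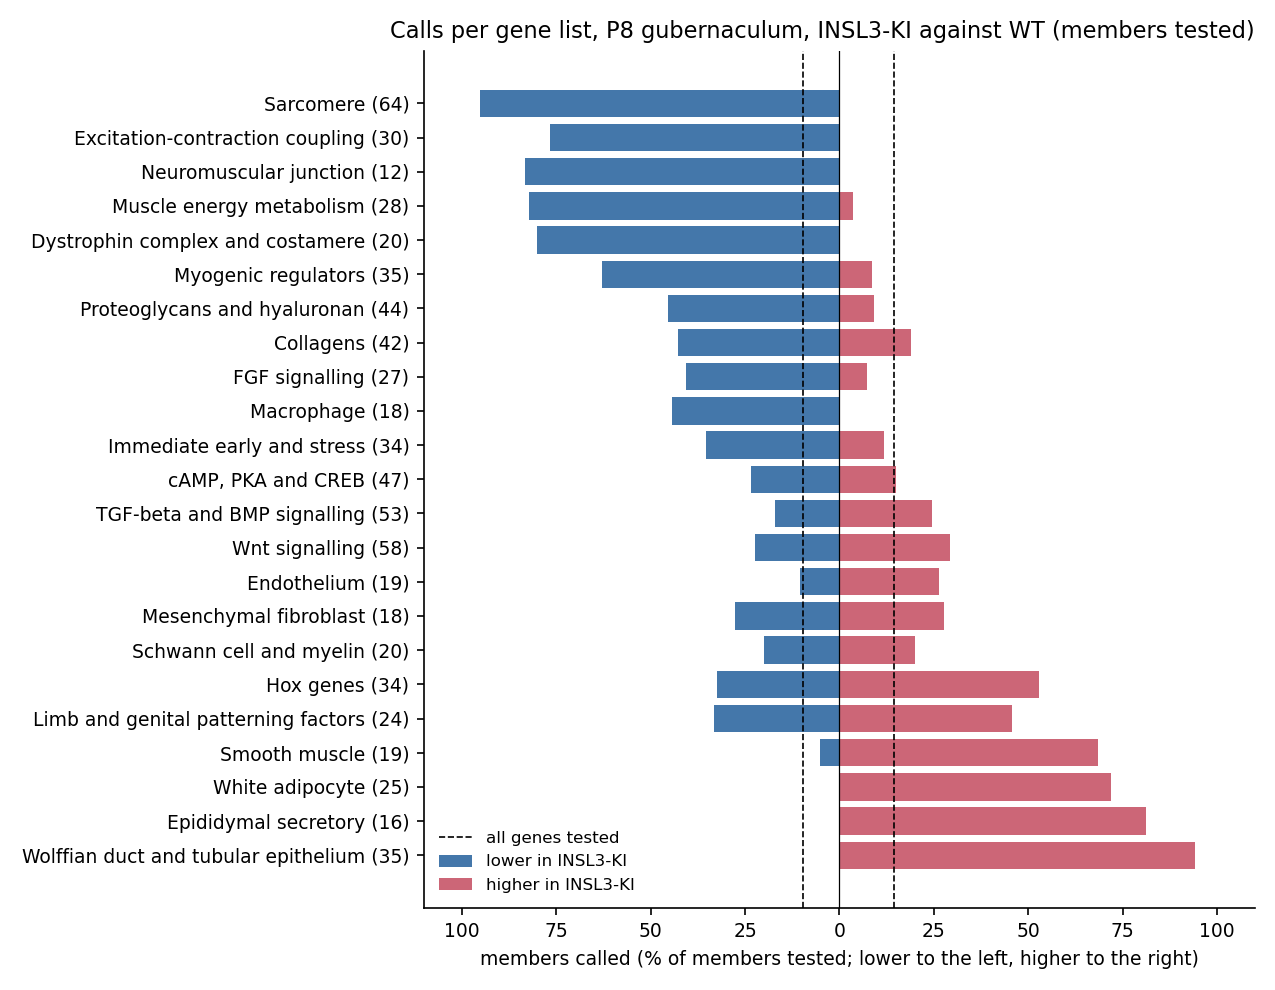
Bars give the percentage of tested members of each gene list that was called lower (blue, to the left) or higher (red, to the right) in INSL3-KI, with the number tested in parentheses. Dashed lines mark all genes tested, at 9.63% lower and 14.4% higher. The muscle lists extend to the left and the smooth muscle, adipocyte and duct lists to the right. Members of the muscle and myogenic lists that passed the filter only through WT had to be lower. Members of the duct and adipocyte lists that passed it only through INSL3-KI had to be higher. The bars of these lists are not read as a result.

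The receptor was nearly lost from the tissue. Rxfp2, on chr5:150018675-150082184, was at 40.2, 51 and 45.7 CPM in WT and at 1.63, 1.6 and 2.06 CPM in INSL3-KI (log2 fold change −4.69 ± 0.17, SE, n = 3 per group, adjusted p = 6.6e-07). Every INSL3-KI library lay below every WT library. Rxfp1, which encodes the relaxin receptor, was at 0.55 to 2.73 CPM in WT and at 0.215 to 0.534 CPM in INSL3-KI and did not pass the test (adjusted p = 0.029). Of the 5 tested genes of INSL3 and relaxin signalling, 3 were lower and none was higher.

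Skeletal muscle genes were lower as a group in their summed counts. Of 153 genes on the 5 muscle lists (sarcomere, excitation-contraction coupling, neuromuscular junction, energy metabolism and the dystrophin complex), 132 were lower in INSL3-KI, 1 was higher and 20 were not called, against 9.63% lower among all genes. Their counts summed to between 107000 and 113000 CPM in WT and between 11000 and 13600 CPM in INSL3-KI, and their median log2 fold change was −5.75. Members that passed the filter on low counts only through WT, such as Chrng, had to be lower, so neither the share nor the median is read as a result. The same limit holds below for the calls and medians of the single muscle lists and the myogenic regulators, and at P23. The sums include every member of the lists. As unscaled counts they made up 9.67% to 10.2% of the Ensembl counts of a WT library and 1.24% to 1.51% of those of an INSL3-KI library. What remained in INSL3-KI was uneven, as the plot of muscle genes by library shows.

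**Figure D2:**
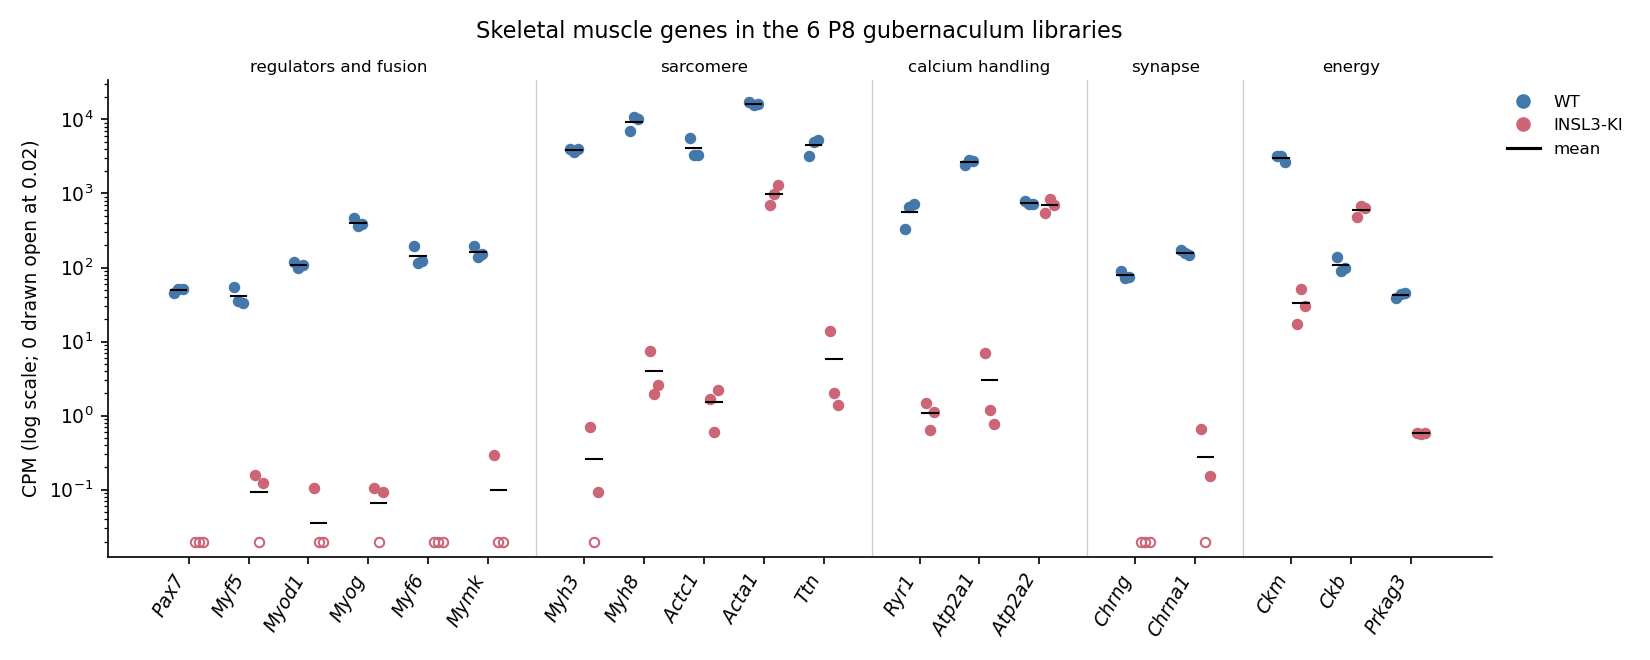
Each point is the CPM of a gene in 1 library on a log scale, blue for the 3 WT and red for the 3 INSL3-KI libraries, with black lines at the group means and libraries without a count drawn open at 0.02. Regulators and the fusion gene Mymk sit near or at 0 in INSL3-KI, Atp2a2 overlaps between the groups and Ckb is higher.

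The transcription factors that set up the muscle lineage were nearly undetected. Pax7, the marker of muscle satellite cells, was at 45, 52 and 51.6 CPM in WT and at 0 in the 3 INSL3-KI libraries, so WT was at least 566-fold higher. All 4 myogenic bHLH factors were lower. Myod1 was at 119, 97 and 109 CPM in WT and at 0.107, 0 and 0 CPM in INSL3-KI (log2 fold change −11.32 ± 0.39, adjusted p = 4.9e-07). Myog, the factor of terminal differentiation, was at 460, 359 and 392 CPM against 0.107, 0 and 0.0921 CPM (−12.46 ± 0.34, adjusted p = 1.8e-07). Both fell to a few counts per library in INSL3-KI. Myf5, which acts early in the lineage, fell by 8.69 ± 0.49 on the log2 scale, and Myf6 was at 116 to 195 CPM in WT and undetected in INSL3-KI (WT at least 1650-fold higher). The fusion genes Mymk and Mymx, whose products merge myoblasts into fibres, fell by 10.53 and 9.49, and Mstn, the secreted inhibitor of muscle growth, fell by 10.49. Of the 35 tested myogenic regulators, 22 were lower and 3 higher. The 3 that rose, Tcf21, Hlf and Fst, are also used outside muscle. Tcf21, a mesenchymal factor, was at 0.162 to 1.46 CPM in WT and at 83.1 to 140 CPM in INSL3-KI (6.87 ± 0.50, adjusted p = 1.7e-05), and Fst, which encodes the activin and myostatin antagonist follistatin, rose by 1.96 ± 0.27.

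The contractile apparatus followed. Of 64 sarcomere genes, 61 were lower and none was higher (median log2 fold change −7.85), in all its parts: 17 of 18 thick filament genes, 16 of 17 thin filament genes, 18 of 19 Z-disc genes and all 10 genes of titin and the M-band. Myh3, the embryonic myosin heavy chain, was at 4000, 3650 and 4000 CPM in WT and at 0.694, 0 and 0.0921 CPM in INSL3-KI (−13.76 ± 0.73, adjusted p = 3.2e-06). Myh8, the perinatal form, was at 7040, 10800 and 10200 CPM against 7.39, 1.99 and 2.58 CPM (−11.19 ± 0.65, adjusted p = 5.0e-06). Myosins typical of development and of slow fibres were thus both low, since Myh7 also fell by 9.06 ± 0.45. Myh4, the fast adult form, was at 23.7 to 77.2 CPM in WT and at 0 to 5.47 CPM in INSL3-KI and did not pass the test (adjusted p = 0.013). The myosin genes are near copies of each other, and reads could have been assigned to the wrong member.

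Among the actins the difference was graded. Actc1, the cardiac and developmental actin, was at 5670, 3280 and 3330 CPM in WT and at 1.68, 0.602 and 2.24 CPM in INSL3-KI (−11.40 ± 0.56, adjusted p = 2.1e-06). Acta1, the skeletal actin, was at 17200, 15400 and 16000 CPM in WT and at 705, 975 and 1300 CPM in INSL3-KI (−4.03 ± 0.25, adjusted p = 7.5e-06). Acta1 thus stayed well detected in INSL3-KI. Myl1, Mylpf and Tnnt3, which encode the light chains and troponin T of fast fibres, had between 0.482 and 8.78 CPM per library. On the length-corrected scale the INSL3-KI means were 728 FPKM for Acta1, 4.24 FPKM for Myl1 and 2.34 FPKM for Mylpf. Actins share most of their coding sequence, and Acta2 rose in the same libraries. The part of misassigned reads in the Acta1 level was not tested. The giant protein genes Ttn fell by 9.56 ± 1.02 and Neb fell by 9.27 ± 0.36, and Csrp3, a Z-disc protein, had 3 counts in INSL3-KI in all and was 13800-fold lower (95% counting interval 4720 to 66900). Des, the intermediate filament of all muscle types, fell by only 1.5 ± 0.22, from 2300 to 2500 CPM in WT to 577 to 1100 CPM in INSL3-KI.

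Genes of calcium release fell with the sarcomere, 23 of 30 being lower and none higher (median −5.68). Cacna1s, the voltage sensor of the T-tubule, was at 213, 361 and 339 CPM in WT and at 0.72, 0.241 and 0 CPM in INSL3-KI (−9.81 ± 0.59, adjusted p = 6.1e-06), and Ryr1, the release channel, fell by 9.04 ± 0.45. The calcium pumps separated by isoform. Atp2a1, the pump of fast muscle, was at 2430, 2870 and 2780 CPM in WT and at 7.12, 1.2 and 0.767 CPM in INSL3-KI (−9.77 ± 0.89, adjusted p = 5.3e-05). Atp2a2, the pump of slow, cardiac and smooth muscle and of many other cells, was at 780, 731 and 719 CPM against 538, 846 and 691 CPM (−0.10 ± 0.17, adjusted p = 0.63), and its groups overlapped. Casq1 fell by 3.89 ± 0.20, a smaller difference than that of the release channel.

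At the neuromuscular junction, all 5 acetylcholine receptor subunits tested and 10 of 12 genes in all were lower (median −5.06). Chrng, the subunit of the fetal receptor, was at 88.5, 72.3 and 74.1 CPM in WT and undetected in INSL3-KI, so WT was at least 895-fold higher. Chrna1 was at 173, 157 and 147 CPM in WT and at 0.667, 0 and 0.153 CPM in INSL3-KI (−9.09 ± 0.53, adjusted p = 5.2e-06). Musk, the receptor kinase that gathers these subunits, fell by 8.01 ± 0.46, and Ache, acetylcholinesterase, fell by 5.08 ± 0.16. The postsynaptic apparatus of the muscle fibre was thus low together with the fibre's own genes.

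The promoters of 3 genes that fell are shown as examples that hold an E-box, the motif that myogenic bHLH factors bind. Each window runs 5′ to 3′ on the gene's strand from 250 bases before to 50 bases after the RefSeq start (GRCm38.p6), and capitals mark the E-box CAGCTG, which reads the same on both strands.
Chrng, chr1:87205561-87205860, plus strand: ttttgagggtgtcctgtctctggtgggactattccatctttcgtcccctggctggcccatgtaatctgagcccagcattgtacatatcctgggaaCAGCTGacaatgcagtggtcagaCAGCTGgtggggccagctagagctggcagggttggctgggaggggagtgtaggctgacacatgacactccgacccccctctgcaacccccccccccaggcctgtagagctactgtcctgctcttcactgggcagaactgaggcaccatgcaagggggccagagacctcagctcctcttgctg
Chrna1, chr2:73580289-73580588, minus strand: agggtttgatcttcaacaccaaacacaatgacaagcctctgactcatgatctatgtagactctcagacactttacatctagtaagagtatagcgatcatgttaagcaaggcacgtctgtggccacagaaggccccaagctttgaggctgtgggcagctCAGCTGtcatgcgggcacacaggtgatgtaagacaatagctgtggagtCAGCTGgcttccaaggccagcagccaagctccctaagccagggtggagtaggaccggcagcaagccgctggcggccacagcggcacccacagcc
Acta1, chr8:123894726-123895025, minus strand: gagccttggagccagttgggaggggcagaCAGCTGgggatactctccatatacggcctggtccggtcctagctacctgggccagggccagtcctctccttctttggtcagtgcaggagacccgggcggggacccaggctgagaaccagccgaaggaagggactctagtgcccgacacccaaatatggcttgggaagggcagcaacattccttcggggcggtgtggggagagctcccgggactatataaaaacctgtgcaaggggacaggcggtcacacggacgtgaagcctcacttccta
Chrng and Chrna1 hold 2 matches each, which begin 155 and 132 bases and 92 and 44 bases before the start, and Acta1 holds 1, which begins 221 bases before it. Of the 64 sarcomere genes, 50 were matched by symbol to 60 promoters, and 22 of these (36.7%) held CAGCTG, against 16.3% of all 32851 promoters in the RefSeq table. The CArG box, the element of serum response factor, stood in 15% of the sarcomere promoters, in 2 of 18 promoters (11.1%) of the 14 matched smooth muscle genes and in 1.63% of all promoters. CAGCTG stood in 22.3% of the promoters of genes called lower and in 16.2% of those of genes tested. These matches describe letters in a window and not bound sites, and their part in the falls was not tested.

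Muscle energy genes were lower in 23 of 28 cases and higher in 1 (median −3.70). Ckm, the creatine kinase of muscle, was at 3210, 3160 and 2620 CPM in WT and at 17.3, 51.7 and 29.8 CPM in INSL3-KI (−6.51 ± 0.43, adjusted p = 9.8e-06). The exception was Ckb, the creatine kinase of brain and smooth muscle, at 138, 90.2 and 99.5 CPM in WT and at 478, 686 and 628 CPM in INSL3-KI (2.45 ± 0.20, adjusted p = 3.3e-05). The 2 isoforms thus moved in opposite directions without any overlap of the groups. Eno3 and Pygm, enzymes of glycolysis and glycogen breakdown, fell by 5.51 ± 0.14 and 3.80 ± 0.11, Fabp3, the fatty acid carrier of muscle, fell by 5.12 ± 0.23, and Cox6a2, the muscle subunit of cytochrome oxidase, fell by 9.0 ± 0.49. Mb, myoglobin, was at 27.7 to 50.6 CPM in WT and at 1.9 to 3.28 CPM in INSL3-KI (−3.99 ± 0.30). Of the 13 genes of the mitochondrial genome none was called in either direction by edgeR or DESeq2, and all 13 had an unadjusted p under 0.05. They summed to 56100 to 64300 CPM in WT and 39700 to 42700 CPM in INSL3-KI, and the groups did not overlap. Among 14 genes of AMPK, the energy-sensing kinase, 3 were lower and 1 was higher. Prkag3, the regulatory subunit of glycolytic muscle, was at 38.8, 44.5 and 45.1 CPM in WT and at 0.587, 0.572 and 0.583 CPM in INSL3-KI (−6.19 ± 0.16, adjusted p = 1.5e-07), and Prkaa2, the catalytic subunit of muscle, fell by 1.99 ± 0.14, while Prkag2 rose by 1.76 ± 0.13.

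Of 20 dystrophin complex and costamere genes, 16 were lower and none was higher (median −2.37). Cav3, the caveolin of striated muscle, fell by 8.31 ± 0.30. Dmd, the dystrophin gene itself, was at 91.2, 132 and 157 CPM in WT and at 102, 154 and 113 CPM in INSL3-KI (−0.04 ± 0.22, adjusted p = 0.88), with overlapping groups. Dystrophin is also made in smooth muscle, whose genes were higher in the same libraries, and the part of smooth muscle in the Dmd level was not tested.

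Smooth muscle genes moved the other way. Of 19 tested, 13 were higher in INSL3-KI and 1 was lower (median 2.66), against 14.4% higher among all genes, and the list summed to 5950 to 6680 CPM in WT and 24300 to 30700 CPM in INSL3-KI. Actg2, the enteric form of smooth muscle actin, was at 3.5, 2.04 and 2.6 CPM in WT and at 1020, 1240 and 1460 CPM in INSL3-KI (8.84 ± 0.28, adjusted p = 3.2e-07). Cnn1, calponin, was at 4.08, 3.47 and 1.43 CPM against 1230, 1600 and 1530 CPM (8.92 ± 0.41, adjusted p = 1.6e-06). Both are found in differentiated smooth muscle, and both were a few CPM in every WT library. Myh11, the smooth muscle myosin, was at 11.7, 31 and 44.7 CPM in WT and at 4370, 6390 and 5040 CPM in INSL3-KI (7.50 ± 0.54, adjusted p = 1.6e-05), and Mylk, the kinase that starts its contraction, rose by 6.02 ± 0.26. Genes that myofibroblasts and pericytes also express differed less and were already measurable in WT. Acta2 was at 1180, 938 and 852 CPM in WT and at 7300, 8270 and 8330 CPM in INSL3-KI (3.01 ± 0.18, adjusted p = 5.3e-06), Tagln rose by 4.64 ± 0.22 and Myl9 by 3.12 ± 0.17. Myocd, the coactivator that directs these genes, rose from 1.46 to 1.86 CPM to 26.8 to 49.5 CPM (4.51 ± 0.27). Tpm2, a tropomyosin of skeletal and smooth muscle, fell by 1.21 ± 0.16, and this call was lost when scaled by library size alone (adjusted p = 0.0019, below the fold threshold).

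Genes of duct epithelium were far above WT. Of 37 genes on the list of Wolffian duct and tubular epithelium, 35 passed the filter on low counts, and 3 of these had no count in WT. Of the 35, 33 were called higher and none lower. The median log2 fold change was 7.01, or 6.54 with genes undetected in WT taken at their bound. Members that passed only through INSL3-KI had to be higher, so neither the share nor the median is read as a result. The list summed to 130 to 260 CPM in WT and 3250 to 4150 CPM in INSL3-KI. Pax2, a transcription factor of the Wolffian duct and kidney, was at 0.324, 0 and 0 CPM in WT and at 49.1, 87.9 and 62.9 CPM in INSL3-KI (9.24 ± 0.63, adjusted p = 1.1e-05). Pax8, its close relative, was at 0.227, 0.124 and 0 CPM against 72.4, 105 and 73.1 CPM (9.43 ± 0.43, adjusted p = 1.6e-06). These factors were therefore present in all 3 INSL3-KI libraries and close to 0 in all 3 WT libraries. Epcam, an adhesion protein of epithelia, was at 1.17, 2.54 and 0.944 CPM in WT and at 225, 243 and 250 CPM in INSL3-KI (7.26 ± 0.32, adjusted p = 1.5e-06). Cldn8, a tight junction protein, rose by 11.17 ± 0.46 and Ehf, an epithelial ETS factor, by 10.63 ± 0.47. Foxi1, the factor of proton-secreting clear cells, was undetected in WT and at 9.18 to 11.7 CPM in INSL3-KI, at least 107-fold higher. The keratins Krt8 and Krt18 of simple epithelium rose by 3.53 ± 0.35 and 4.49 ± 0.31. Krt5, a keratin of basal cells, rose by 6.81 ± 0.75, while Krt14 was at 3.53 to 17.8 CPM in WT and 19.8 to 23.4 CPM in INSL3-KI and did not pass the test (adjusted p = 0.18).

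**Figure D3:**
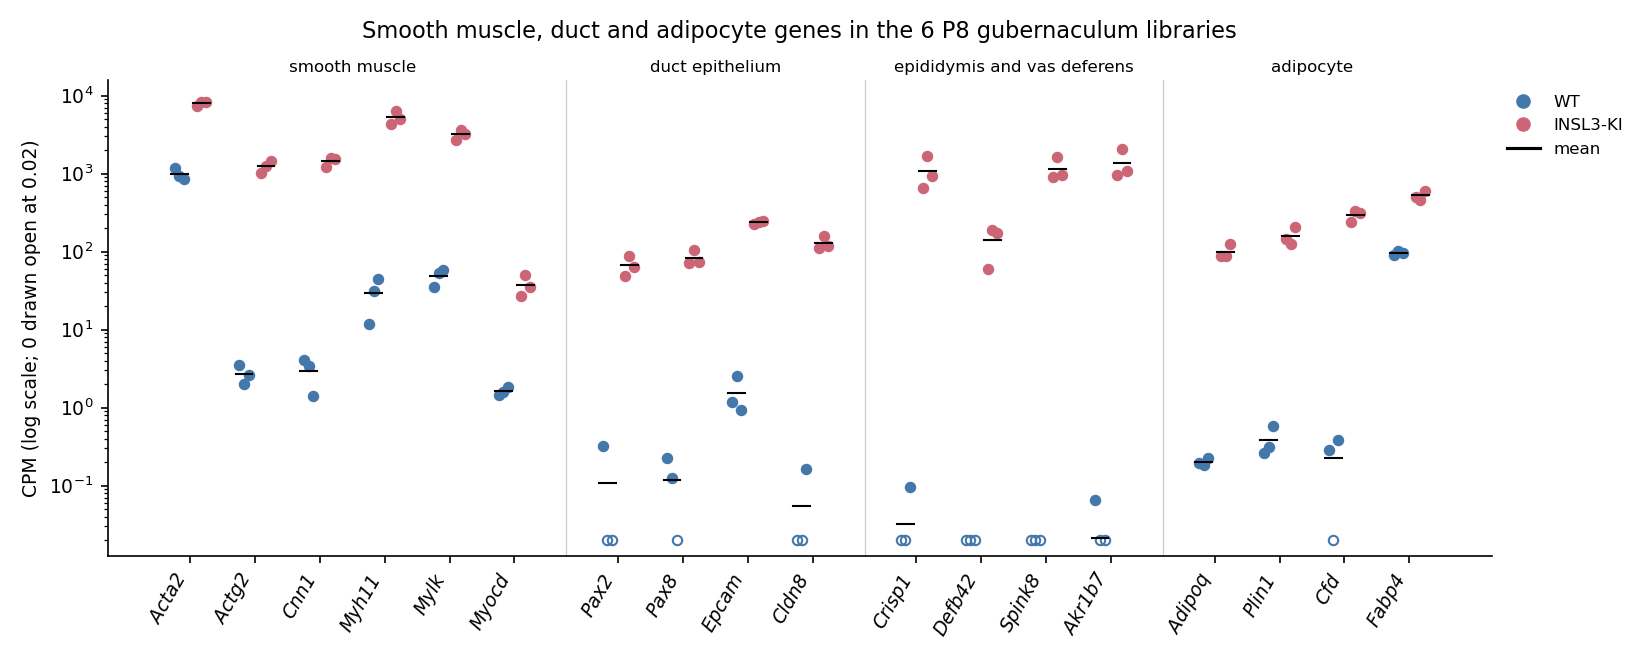
Each point is the CPM of a gene in 1 library on a log scale, blue for the 3 WT and red for the 3 INSL3-KI libraries, with black lines at the group means and libraries without a count drawn open at 0.02. In each of the 18 genes drawn, all INSL3-KI libraries lie above all WT libraries, and Spink8 and Defb42 have no count in WT.

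Secreted proteins of the epididymis and vas deferens were present as well. Of 41 genes on the epididymal secretory list 16 passed the filter on low counts, and 6 of these had no count in any WT library. Members that passed only through INSL3-KI had to be higher, so the share of the list called higher is not read as a result and single genes are given instead. Crisp1, a sperm-coating protein of the epididymis, had 3 counts in WT in all and was at 650, 1670 and 937 CPM in INSL3-KI, a ratio of 33400 (95% counting interval 11400 to 162000). Defb42, an epididymal defensin, was undetected in WT and at 60.8, 191 and 171 CPM in INSL3-KI, at least 1470-fold higher. Spink8, a protease inhibitor gene, was undetected in WT and at 912, 1620 and 950 CPM in INSL3-KI, at least 12100-fold higher, which was the largest bound among all genes named here. Akr1b7, which encodes the mouse vas deferens protein, had 2 counts in WT and was at 949, 2090 and 1080 CPM in INSL3-KI, a ratio of 63600 (95% counting interval 17600 to 525000). On the length-corrected scale, mean Spink8 and Akr1b7 reached 1740 and 1120 FPKM in INSL3-KI, next to 728 FPKM for Acta1 in the same libraries. Aqp2, a water channel that the kidney collecting duct and the vas deferens use, was undetected in WT and at 118 to 208 CPM in INSL3-KI, at least 1810-fold higher. Lcn5 and Gpx5, secreted products of the mature epididymis, were undetected in WT and reached only 1.41 to 1.9 CPM and 0.293 to 0.783 CPM in INSL3-KI. Clu, clusterin, was expressed in both groups, at 170, 131 and 125 CPM in WT and at 1900, 974 and 2810 CPM in INSL3-KI (3.74 ± 0.38, adjusted p = 9.4e-05). The part of these cells in the other differences of INSL3-KI gubernaculum was not tested.

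Marker lists of other organs differed between the groups to unlike degrees. Of the 13 genes of prostate, seminal vesicle and urothelium, 4 passed the filter, and the list summed to 0.618 to 0.809 CPM in WT and 8.32 to 15.2 CPM in INSL3-KI. The Leydig cell list summed to 10.5 to 15 CPM in WT and 7.55 to 12.1 CPM in INSL3-KI, with Star at 4.01 to 11 CPM and Cyp17a1 at 0 to 1.67 CPM, and the germ cell list to 38.3 to 53.6 CPM in WT and 19 to 38.6 CPM in INSL3-KI. Of 11 germ cell genes 3 were lower, among them Ddx4, at 1.43 to 5.34 CPM in WT and 0.267 to 0.706 CPM in INSL3-KI (−2.72 ± 0.61, adjusted p = 0.0062), and Dazl (−2.68 ± 0.64, adjusted p = 0.0084). Cyp11a1, the enzyme that starts steroid synthesis, was lower among the Leydig cell genes (−2.67 ± 0.36, adjusted p = 4.9e-04). Of the Sertoli cell list, 2 of 8 tested genes were higher, Clu and Sox9, which epididymal epithelium and cartilage respectively also express, whereas Amh was at 0.228 to 3.1 CPM and Rhox5 at 0 to 0.217 CPM in any library. The keratinocyte list, 11 of whose 15 genes passed the filter, summed to 38.7 to 58.8 CPM in WT and 264 to 275 CPM in INSL3-KI. Of 16 hepatocyte genes 4 passed the filter, 2 of them higher and none lower, against 14.4% higher among all genes. That list summed to 37.5 to 123 CPM in WT and 131 to 253 CPM in INSL3-KI, while its defining gene Alb, albumin, was at 0 to 0.583 CPM in any library.

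White adipocyte genes were higher in 18 of 25 cases and lower in none (median 2.16). Members that passed the filter only through INSL3-KI, such as Adipoq, had to be higher, so neither the share nor the median is read as a result. The whole list summed to 2380 to 3020 CPM in WT and 4970 to 7040 CPM in INSL3-KI. Adipoq, adiponectin, was at 0.194, 0.186 and 0.228 CPM in WT and at 87.7, 88.7 and 125 CPM in INSL3-KI (8.93 ± 0.25, adjusted p = 1.9e-07). Plin1, the coat protein of lipid droplets, was at 0.259, 0.31 and 0.586 CPM against 147, 126 and 207 CPM (8.69 ± 0.32, adjusted p = 7.0e-07). Cfd, the adipocyte protease adipsin, rose by 10.34 ± 0.46, and Retn, resistin, was undetected in WT and at 35.3 to 59 CPM in INSL3-KI, at least 485-fold higher. These genes, which mark mature fat cells, were almost absent from WT. Fabp4, which endothelium and precursors also express, was at 90.9, 102 and 95.2 CPM in WT and at 509, 465 and 607 CPM in INSL3-KI (2.46 ± 0.13, adjusted p = 3.2e-06), and Pparg, the factor that drives fat cell formation, rose by 3.49 ± 0.25. Of 14 brown and beige adipocyte genes tested, 2 were higher and 5 lower. Ucp1, which defines thermogenic fat, was called higher, at 0.0648 to 0.248 CPM in WT and 0.602 to 2.73 CPM in INSL3-KI (3.21 ± 0.79, adjusted p = 0.0097), and this call was lost in each fit that left out 1 library (adjusted p between 0.01 and 0.053). The brown-fat precursor gene Zic1 was at 17.3 to 21.1 CPM in WT and at 0 to 0.107 CPM in INSL3-KI (−8.27 ± 0.43).

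Hox genes, which encode the position of a tissue along the body axis, changed by cluster. Of 34 tested, 11 were lower and 18 higher (median 1.71). In the Hoxb cluster all 8 were higher, with Hoxb8 at 1.75, 1.77 and 2.51 CPM in WT and at 93.4, 145 and 120 CPM in INSL3-KI (5.89 ± 0.23, adjusted p = 8.1e-07). In the Hoxc cluster 6 of 7 were lower. Hoxc10 was at 44.8, 44.2 and 45.5 CPM in WT and at 5.18, 3.07 and 4.42 CPM in INSL3-KI (−3.40 ± 0.19, adjusted p = 4.7e-06), and Hoxc9, Hoxc8 and Hoxc4 fell by 2.84, 2.13 and 1.87. The Hoxa cluster was split by position, with 5 of the genes up to Hoxa7 lower and Hoxa10, Hoxa11 and Hoxa13 higher. Hoxa10 and Hoxa11, which are required for testicular descent in mice, were at 43.2, 44.2 and 41.5 CPM and at 33.2, 30.4 and 25 CPM in WT and rose by 2.10 ± 0.10 and 2.26 ± 0.13. In the Hoxd cluster 6 of 8 were higher and none was lower, and the posterior genes Hoxd11, Hoxd12 and Hoxd13 had the largest differences of the cluster. Hoxd11 rose by 5.42 ± 0.25. Hoxd12 and Hoxd13, which pattern the distal limb and the external genitalia, were undetected in WT and at 12.3 to 24.9 CPM and 53.6 to 69.8 CPM in INSL3-KI, at least 215-fold and 669-fold higher. The 2 sets of libraries thus carried different Hox combinations, and neither was a uniform rise or fall.

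**Figure D4:**
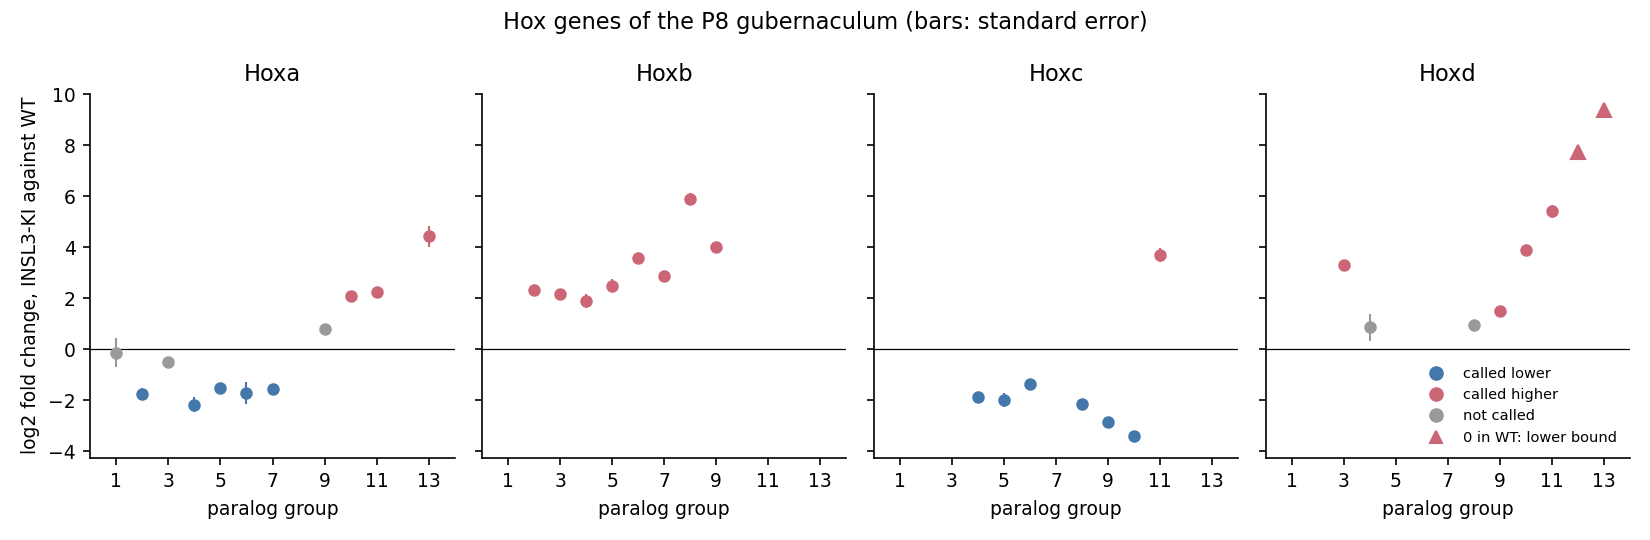
Points give the log2 fold change of each tested Hox gene by cluster and paralog group, with the standard error as a bar, blue for genes called lower, red for genes called higher and grey for genes not called. Triangles are lower bounds for Hoxd12 and Hoxd13, which had no count in WT. All 8 Hoxb genes lie above 0, 6 of 7 Hoxc genes lie below 0 and the Hoxa genes cross from below to above.

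Other patterning factors of limb, body wall and genital mesenchyme changed as sharply, 8 of 24 being lower and 11 higher. Tbx15, a T-box factor of the mesenchyme of the body wall and limb, was at 137, 134 and 147 CPM in WT and at 0.24, 0.452 and 0.123 CPM in INSL3-KI (−8.98 ± 0.26, adjusted p = 2.4e-07). Alx4, a homeobox factor of limb and ventral body wall mesenchyme, was at 195, 195 and 203 CPM against 1.6, 1.96 and 1.11 CPM (−6.98 ± 0.19, adjusted p = 1.9e-07). Pitx1 and Tbx4, hindlimb factors, fell by 6.57 ± 0.40 and 3.16 ± 0.22, and Isl1, which acts before them in the hindlimb field, fell by 5.05 ± 0.41. For each of these genes, all INSL3-KI libraries lay below all WT libraries. On the other side, Foxf2, a mesenchymal forkhead factor, was undetected in WT and at 70.2, 56.9 and 68.7 CPM in INSL3-KI, at least 681-fold higher. Emx2, a factor of the urogenital ridge, was at 7.41, 9.85 and 6.44 CPM in WT and at 54, 68.9 and 52.7 CPM in INSL3-KI (2.89 ± 0.19, adjusted p = 1.0e-05), and Osr1, Meis2 and Nr2f2 rose by 1.90, 2.34 and 2.01. Wt1, a factor of mesothelium and urogenital mesenchyme, was at 51.3 to 85.3 CPM in WT and at 25.8 to 39.9 CPM in INSL3-KI and stayed below the fold threshold (−0.94 ± 0.23, adjusted p = 0.0089).

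Fibroblast markers went in both directions or were not called. Pdgfra was at 210, 221 and 258 CPM in WT and at 268, 221 and 238 CPM in INSL3-KI (0.08 ± 0.12, adjusted p = 0.60), and Pdgfrb had a log2 fold change of 0.19 ± 0.11 (adjusted p = 0.16). Of 18 mesenchymal fibroblast genes, 5 were lower and 5 higher (median 0.137), and the list summed to 2980 to 3360 CPM in WT and 2750 to 3120 CPM in INSL3-KI. Of all genes tested, 24% were called in either direction. Cxcl14, a chemokine, was at 0.744 to 1.26 CPM in WT and at 91.2 to 113 CPM in INSL3-KI (6.70 ± 0.20, adjusted p = 2.8e-07).

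A fetal growth factor, a keeper of precursor cells and an inhibitor of the cell cycle were lower together. Igf2, which encodes the fetal insulin-like growth factor, was at 7120, 7530 and 7890 CPM in WT and at 248, 157 and 228 CPM in INSL3-KI (−5.15 ± 0.22, adjusted p = 1.3e-06). Dlk1, which keeps precursors of fat and muscle undifferentiated, was at 5650, 4110 and 4510 CPM against 247, 199 and 215 CPM (−4.43 ± 0.19, adjusted p = 1.3e-06). Cdkn1c, an inhibitor of the cell cycle, was at 2710, 1710 and 1950 CPM against 121, 75.3 and 113 CPM (−4.36 ± 0.26, adjusted p = 6.1e-06). Igf2, Dlk1 and Cdkn1c are all imprinted, and their mean levels in WT were 1510, 2060 and 1030 FPKM. They were not picked for imprinting, and no list of imprinted genes was examined. Igf1, the postnatal growth factor, was at 211, 246 and 227 CPM in WT and at 261, 197 and 189 CPM in INSL3-KI (−0.08 ± 0.14, adjusted p = 0.65), with overlapping groups. Of 12 tested genes of IGF signalling, 5 were lower and 1 higher (median −0.217). Igfbp2 fell by 4.05 ± 0.42, Igf2r by 2.03 ± 0.17, Igfbp6 by 1.70 ± 0.11 and Igfbp5 by 1.04 ± 0.20. The Igfbp5 call was lost when scaled by library size alone (log2 fold change −0.726). Cdkn1a, another inhibitor of the cell cycle, was at 424, 378 and 377 CPM in WT and at 16.6, 34.6 and 16.9 CPM in INSL3-KI (−4.11 ± 0.30, adjusted p = 1.7e-05). Of 40 cell cycle genes 6 were lower and 1 higher (median −0.689), and the proliferation marker Mki67, at 134 to 246 CPM in WT and 49.3 to 141 CPM in INSL3-KI, did not pass the test (adjusted p = 0.054).

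**Figure D5:**
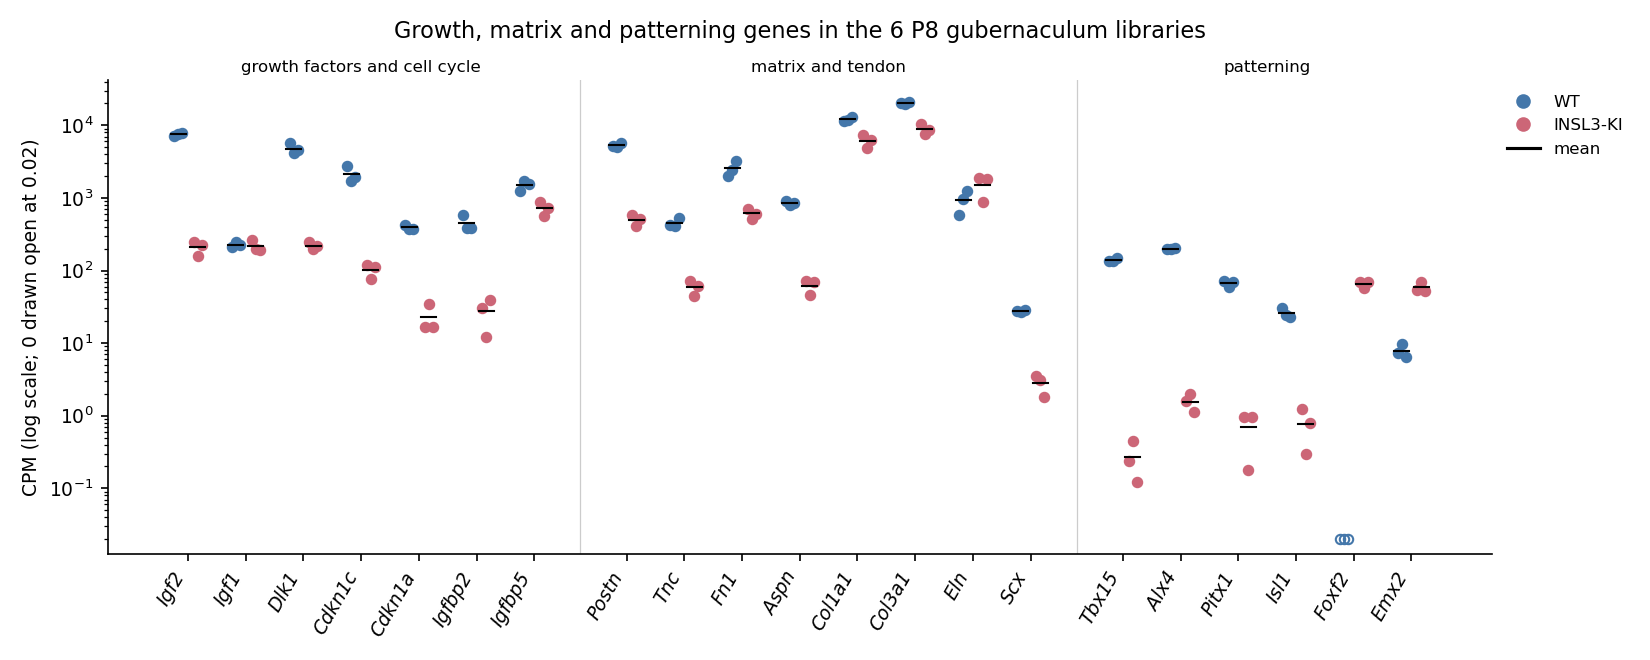
Each point is the CPM of a gene in 1 library on a log scale, blue for the 3 WT and red for the 3 INSL3-KI libraries, with black lines at the group means and libraries without a count drawn open at 0.02. Igf2, Dlk1, Cdkn1c and Postn are lower in every INSL3-KI library, Igf1 and Eln overlap between the groups, and Tbx15 is lower while Foxf2 has no count in WT.

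The matrix changed by kind of protein. Of 21 matrix glycoproteins, 15 were lower and 1 higher (median −1.6). Postn, periostin, which connective tissue deposits as it grows, was at 5230, 5090 and 5620 CPM in WT and at 585, 405 and 518 CPM in INSL3-KI (−3.40 ± 0.18, adjusted p = 3.0e-06). Tnc, tenascin-C, fell by 2.95 ± 0.19 and Fn1, fibronectin, by 2.06 ± 0.20. Aspn, a small leucine-rich proteoglycan, was at 895, 794 and 841 CPM against 70.6, 46.1 and 69.2 CPM (−3.77 ± 0.19, adjusted p = 2.4e-06), whereas its relative Dcn did not pass (−0.62 ± 0.16, adjusted p = 0.011). Has2, which makes hyaluronan, the swelling component of the fetal gubernaculum, fell by 2.29 ± 0.28, from 14.5 to 15.4 CPM to 1.81 to 3.87 CPM. Of 34 matrix proteases and inhibitors, 7 were lower and 4 higher (median −0.436). Of 42 tested collagen genes, 18 were lower and 8 higher (median −0.943). The fibrillar collagens made up 8 of the 18 with none higher. Col3a1 was at 20000, 19800 and 21100 CPM in WT and at 10300, 7540 and 8490 CPM in INSL3-KI (−1.21 ± 0.17, adjusted p = 5.9e-04), a call lost when scaled by library size alone (−0.89), and Col1a1 stayed just within the fold threshold (−0.97 ± 0.19, adjusted p = 0.0029). Of 11 basement membrane and network collagens 5 were higher and 2 lower, with Col4a6, which smooth muscle and epithelia lay down, at 13.1, 21.4 and 14.5 CPM in WT and at 207, 200 and 222 CPM in INSL3-KI (3.68 ± 0.19, adjusted p = 3.1e-06). Eln, elastin, was at 575 to 1240 CPM in WT and at 870 to 1880 CPM in INSL3-KI, and the groups overlapped (adjusted p = 0.11). Among the tendon genes, 5 of 12 were lower and 1 higher. Scx, the factor of tendon cells, was at 27.3, 26.8 and 28.9 CPM in WT and at 3.55, 3.07 and 1.81 CPM in INSL3-KI (−3.29 ± 0.24, adjusted p = 1.8e-05), and Thbs4, a tendon and muscle matrix protein, fell by 3.27 ± 0.36.

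RXFP2 signals through cAMP, protein kinase A and CREB. Of 47 genes of this pathway, 11 were lower and 7 higher, against 9.63% lower and 14.4% higher among all genes. Their median log2 fold change was −0.0676 and turned positive (0.248) when scaled by library size alone. Prkaca, the catalytic subunit of the kinase, was at 711, 583 and 652 CPM in WT and at 91.7, 79.5 and 92.7 CPM in INSL3-KI (−2.88 ± 0.13, adjusted p = 1.4e-06). Pkia, an inhibitor of that kinase that is abundant in muscle, fell by 3.58 ± 0.24. Catalytic subunit and inhibitor were therefore low in the same libraries. Adcy2, an adenylyl cyclase, was at 45.6, 55.8 and 59.1 CPM in WT and at 14.5, 11.8 and 11.2 CPM in INSL3-KI (−2.10 ± 0.15, adjusted p = 1.6e-05), while Adcy5, a cyclase of heart and smooth muscle, was at 8.84, 13.2 and 13.7 CPM against 167, 270 and 192 CPM (4.13 ± 0.25, adjusted p = 5.6e-06). Among the 16 phosphodiesterases tested 4 were lower and 4 higher, with Pde4b lower by a log2 fold change of −2.10 and Pde1a and Pde3b higher by 3.34 and 1.61. Creb1 itself was at 49.1 to 54.3 CPM in WT and at 57.5 to 66.6 CPM in INSL3-KI (0.24 ± 0.10, adjusted p = 0.068). Skeletal muscle genes were low in the same libraries, and their part in the change of these subunits was not tested.

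The genitofemoral nerve acts on the gubernaculum through the peptide CGRP, whose receptor joins CALCRL with RAMP1. Calcrl, expressed mainly in endothelium, was at 27.6, 30.8 and 34.6 CPM in WT and at 229, 175 and 266 CPM in INSL3-KI (2.85 ± 0.17, adjusted p = 6.2e-06), while Ramp1 did not reach the fold threshold (−0.82 ± 0.18, adjusted p = 0.0049) and Ramp3, which turns CALCRL into an adrenomedullin receptor, rose by 3.32 ± 0.44. Calcr, the calcitonin receptor that quiescent satellite cells express, was at 25.3, 27.5 and 25.7 CPM in WT and had 3 counts in INSL3-KI in all, a ratio of 901 (95% counting interval 308 to 4370). The oestrogen receptor gene Esr1, at 82.7 to 124 CPM in WT and 98.5 to 139 CPM in INSL3-KI, overlapped between the groups (adjusted p = 0.53). Of 10 tested steroid and AMH receptor genes, 3 were higher and 1 lower.

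Single members of the developmental signalling pathways differed, and the counts per pathway are to be read against the 9.63% lower and 14.4% higher of all genes. In the hedgehog pathway, 4 of 15 genes were higher and 2 lower. Shh, the ligand, had 2 counts in WT and was at 22.9, 41.4 and 32.5 CPM in INSL3-KI, a ratio of 1500 (95% counting interval 415 to 12400). The genes that hedgehog signalling induces rose beside it, Ptch1 by 2.0 ± 0.19, Hhip by 4.37 ± 0.21 and Gli1 by 1.41 ± 0.18. In the FGF pathway, 11 of 27 genes were lower and 2 higher (median −0.778), and the receptors changed in opposite directions. Fgfr4, the receptor of muscle precursors, was at 127, 101 and 115 CPM in WT and at 5.98, 4.91 and 5.37 CPM in INSL3-KI (−4.40 ± 0.14, adjusted p = 3.2e-07). Fgfr2, the receptor of epithelia, was at 2.43, 3.16 and 4.07 CPM against 286, 325 and 306 CPM (6.57 ± 0.20, adjusted p = 2.8e-07), and shares exon bases with Ctbp2 on the same strand. Fgf10, a mesenchymal ligand of FGFR2, did not pass the test (−0.78 ± 0.23, adjusted p = 0.023).

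Of 58 Wnt genes, 13 were lower and 17 higher (median 0.256). Wnt7b, an epithelial ligand, rose by 5.66 ± 0.44 and Rspo3, which strengthens Wnt signals, by 2.75 ± 0.14. The receptor Fzd9 fell by 4.67 ± 0.31 and the secreted inhibitors Frzb and Sfrp4 by 3.71 ± 0.20 and 2.99 ± 0.17. The effector Lef1 rose by 3.17 ± 0.32, but Axin2, a general target of the pathway, was at 21.1, 25.3 and 32.2 CPM in WT and at 28.8, 33.2 and 31.9 CPM in INSL3-KI and did not pass the test (0.26 ± 0.16, adjusted p = 0.22). Ctnnb1, beta-catenin, had a log2 fold change of −0.07 ± 0.13. In the TGF-beta and BMP pathways, 9 of 53 genes were lower and 13 higher (median −0.0912), and of the 10 transducers and targets 5 were higher and none lower. Id2, a target of BMP signals that blocks bHLH factors, was at 14, 9.6 and 14.5 CPM in WT and at 427, 365 and 426 CPM in INSL3-KI (5.0 ± 0.19, adjusted p = 7.0e-07), and Id4 and Id1 rose by 4.16 ± 0.14 and 1.59 ± 0.14. Smad9, a BMP transducer, rose by 5.25 ± 0.30. Bmp4 itself did not pass the test (0.82 ± 0.22, adjusted p = 0.014), and Tgfb2 fell by 1.6 ± 0.11. Of 32 Notch genes, 3 were lower and 7 higher (median 0.112), with the ligand Jag1 higher by 1.48 ± 0.21 and Dner by 4.98 ± 0.19. The genes of this list that fell were the ligand Dll1 (−1.25 ± 0.17), Hes6 (−1.71 ± 0.19) and Dlk1, given above. Hey1 (−0.45 ± 0.18, adjusted p = 0.066) and Heyl (0.37 ± 0.10, adjusted p = 0.017) were not called.

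Cells of blood, vessel and nerve differed less than muscle and epithelium. Of 19 endothelial genes 2 were lower and 5 higher (median 0.23), with Pecam1 at −0.34 ± 0.11 (adjusted p = 0.028). Emcn, of capillaries and veins, rose by 1.63 ± 0.13, and Prox1, the factor of lymphatic endothelium that muscle satellite cells also express, fell by 2.17 ± 0.20. Of 18 macrophage genes 8 were lower and none higher (median −1.14), from 497 to 979 CPM in WT in sum to 323 to 337 CPM in INSL3-KI. C1qa fell by 1.22 ± 0.19, Mrc1 by 1.20 ± 0.14, and Csf1r stayed within the fold threshold (−0.79 ± 0.15, adjusted p = 0.0030). The C1qa and Mrc1 calls were lost when scaled by library size alone. Of 6 tested granulocyte and mast cell genes 4 were lower and 2 higher. All 13 listed summed to 146 to 173 CPM in WT and 157 to 226 CPM in INSL3-KI. Those of connective tissue mast cells fell further than the macrophage genes. Cma1, a chymase, was at 45.8, 45.1 and 52.7 CPM in WT and at 5.84, 3.19 and 4.02 CPM in INSL3-KI (−3.45 ± 0.22, adjusted p = 9.0e-06), and Cpa3 fell by 3.21 ± 0.19, although Kit, which mast cells share with other cell types, rose by 2.08 ± 0.21. Of 20 Schwann cell genes 4 were lower and 4 higher (median 0.0414), and of 16 neuronal genes 7 were lower and 3 higher (median −1.41). Of 8 erythroid genes none was called by edgeR or DESeq2, and 5 had an unadjusted p under 0.05. Of 15 tested mesothelial genes 3 were lower and 1 higher, with Msln, mesothelin, at 25, 91.2 and 83.8 CPM in WT and at 16.1, 8.16 and 12.9 CPM in INSL3-KI (−2.43 ± 0.47, adjusted p = 0.0031), a call that did not hold in 3 of the 6 fits without 1 library.

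Immediate early genes, which handling of tissue and mechanical load induce within minutes, were lower. Of 22 tested 9 were lower and 2 higher (median −0.878). Fos was at 102, 95.1 and 107 CPM in WT and at 6.4, 5.81 and 4.51 CPM in INSL3-KI (−4.18 ± 0.15, adjusted p = 6.0e-07). Egr1 fell by 3.55 ± 0.18 and Atf3 fell by 4.53 ± 0.29. Of 12 heat shock genes 3 were lower and 2 higher, and Hspa1b, which reads can share with its near-identical copy Hspa1a, was at 40.5 to 55.1 CPM in WT and at 130 to 177 CPM in INSL3-KI (1.65 ± 0.16). These values moved with genotype beside every list above, and their part in those results was not tested.

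The largest differences over all genes tested included genes outside these lists. Besides muscle genes such as Vgll2 (WT at least 1280-fold higher), the rule for the 15 largest falls gave A2m, which encodes a protease inhibitor, at 20.8 to 34.1 CPM in WT and undetected in INSL3-KI (WT at least 300-fold higher), and Pnoc, the precursor of the neuropeptide nociceptin, at 359, 329 and 126 CPM in WT and at 0.133, 0 and 0 CPM in INSL3-KI (−12.35 ± 0.74, adjusted p = 6.1e-06). The rule for the 15 largest rises also gave Serpina1f, an epididymal serpin, at 0.13, 0 and 0 CPM in WT and at 250, 651 and 463 CPM in INSL3-KI (13.26 ± 0.68, adjusted p = 2.8e-06), and Pou3f3, a factor of brain and kidney tubule, undetected in WT and at least 1090-fold higher in INSL3-KI. It further gave Cwh43, Adgrg7 and Ceacam10, undetected in WT and at least 1100-fold, 444-fold and 292-fold higher, and Wfdc15b, also undetected in WT and at least 639-fold higher. Pcp4, which encodes a calmodulin-binding protein, had 3 counts over the WT libraries and was at 290, 286 and 383 CPM in INSL3-KI, a ratio of 9960 (counting interval 3410 to 48300). In all, 38 of the lower genes were at 0 in all 3 INSL3-KI libraries and 147 of the higher genes were at 0 in all 3 WT libraries.

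The same genotypes at P23 give a second reading with their own WT libraries. Mouse Insl3 had 12, 28 and 0 counts in the 3 P23 libraries labelled INSL3-KI and 27, 9 and 20 in those labelled WT. Replicates 1 and 2 of INSL3-KI were thus at the WT level, and mouse Insl3 did not tell the labels apart. INSL3-KI testis at P23 also held such reads, at 52, 66 and 84 counts. Whether a label is wrong cannot be decided from so few counts. In gubernaculum at P23, 355 of 15194 genes were lower (2.34%) and 32 higher (0.211%). Of the 153 muscle genes, 84 were lower and none higher, and their sum was 171000 to 313000 CPM in WT and 9440 to 13600 CPM in INSL3-KI. The muscle sum of each P23 library labelled INSL3-KI, replicate 3 included, thus lay below that of every WT library. The 2 duct lists summed to 635 to 2490 CPM in WT and 664 to 16100 CPM in INSL3-KI at P23, against 455 to 541 CPM and 6110 to 7600 CPM at P8, and the white adipocyte list to 8380 to 20800 CPM in WT and 4340 to 77900 CPM in INSL3-KI. At P23 edgeR called no gene of the duct, smooth muscle and white adipocyte lists (5 of 48, 7 of 19 and 20 of 25 had an unadjusted p under 0.05, and DESeq2 called 2, 4 and 18), and libraries of the same label differed widely. Crisp1 was at 0, 0.126 and 1030 CPM in WT and 2310, 0.694 and 6890 CPM in INSL3-KI. Epcam was at 0.159, 0.758 and 62.8 CPM against 267, 0.271 and 512 CPM. Neither duct gene separated the labels at P23, whereas Adipoq did (0 to 0.436 CPM in WT, 62.6 to 1910 CPM in INSL3-KI). The part of dissection in the P8 differences of these lists was not tested. Tested directly, the signed log2 fold change of INSL3-KI against WT was lower at P23 than at P8 for 28 of 16151 genes (0.173%) and higher for 14 (0.0867%). Lower here means more negative or less positive, and not a smaller effect. Among the genes named here Igfbp5 alone passed this test, which does not show that the others were alike at the 2 ages. Igfbp5, which encodes a binding protein of IGFs, was at 1250, 1690 and 1540 CPM in WT and at 884, 558 and 729 CPM in INSL3-KI at P8, and at 3160, 3300 and 2770 CPM in WT and at 225, 267 and 200 CPM in INSL3-KI at P23. The log2 fold change was −1.04 ± 0.20 at P8 and −3.74 ± 0.32 at P23, a difference of −2.72 ± 0.32 (adjusted p = 0.0042), and this call was lost in 8 of the 12 fits without 1 library. The number of genes past this test was 0 in the fits without WT P8 replicate 1, without WT P8 replicate 2 and without INSL3-KI P8 replicate 3, and 455 in the fit without INSL3-KI P23 replicate 3. Without the P23 INSL3-KI libraries that held mouse Insl3 counts it was 7 (replicate 1) and 346 (replicate 2). The Igfbp5 difference was then −2.71 (adjusted p = 0.015) and −2.81 (adjusted p = 0.0034).

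The strand setting of the read counting is not given in the sources used here. Of the 209 genes whose calls were followed through the alternatives, 63 share exon bases with another gene of GENCODE M21 on either strand, among them Insl3, Fgfr2, Igf2 (with the read-through gene Gm49394), Atp2a1, Tagln and Ttn, and reads of such genes cannot be told apart there. All results rest on 3 libraries per group, and a p-value here measures the spread between those libraries.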

How the data were processed

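mRNA-seq libraries of gubernaculum were compared between INSL3-KI and WT male mice at P8 (3 per group). The authors deposited read counts per gene together with FPKM values (fragments scaled by transcript length and library total) for each sample. Per the submitters' processing notes, reads were aligned with HISAT2 to GRCm38. The annotation, the counting program and its strand setting are not given in the sources used here. Deposited counts of rows with an Ensembl identifier were used as deposited, and other loci were left out.

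Genes were kept by filterByExpr (minimum count 10, total 15), normalized by TMM and tested with edgeR 4.0.16 in R 4.3.3 by the quasi-likelihood F-test, with p-values adjusted by the Benjamini-Hochberg method across the whole table. Calls required an adjusted p under 0.01 and at least a 2-fold difference. SE is the log2 fold change divided by the square root of F. The difference between ages was the interaction term over 12 gubernaculum libraries. Where a group had no counts, a bound was taken from a floor of 3 counts per library, and where it had 1 to 3 counts in all, a ratio with its 95% counting interval, which covers counting error only. Total counts per library, 29861447 to 37707231, set the precision of low genes. The procedure was tested on simulated data.

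Genes were named by a rule: core genes of 45 lists, up to 4 called members of a list in each direction with the largest fold change, and over all genes the 15 with the largest fold change and the 10 with the largest change in FPKM in each direction, at a mean of at least 10 CPM in the higher group. The members and lists were chosen with earlier results of these data known. The replicate numbers were not used as pairs in the main fit. Same-numbered libraries deviated together with correlations of −0.0562, 0.0518 and −0.0335, but 3 libraries per group are too few to decide whether they were paired. Alternatives were DESeq2 1.42.0, no filter, other scalings, a replicate block, limma 3.58.1 on log2(FPKM + 1) and log2(FPKM + 0.1), other samples and thresholds, and leaving out each library. Sequences were aligned with Biopython 1.88, and figures were drawn with matplotlib 3.10.9.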

Additional observations from a re-analysis of the deposited data

Results flagged for a closer look

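Igfbp5 was singled out because the difference between libraries labelled INSL3-KI and WT itself differed between ages in a direct test. The log2 fold change was −1.04 ± 0.20 at P8 and −3.74 ± 0.32 at P23, and their difference in the joint fit was −2.72 ± 0.32 (edgeR interaction term, adjusted p = 0.0042), with Igfbp5 lower in all 3 libraries labelled INSL3-KI at each age. At P23, replicates 1 and 2 of that label held mouse Insl3 at 12 and 28 counts, the level of the WT libraries (27, 9 and 20). The call was kept with DESeq2 and in 4 of 12 fits without 1 library, and lost in the other 8 and with a replicate block (adjusted p = 0.024). Outlier tests need at least 4 samples and were not run on these groups of 3.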

How the results depend on the processing

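Genes lower in INSL3-KI numbered 1345 to 1538 and genes higher 1895 to 2107 in the fits without 1 library. With all 4 gubernaculum groups in 1 fit, 950 were lower and 1076 higher, of which 945 and 1048 were also called in the P8 fit. At an adjusted p under 0.05 without a fold threshold the counts were 4010 and 4490, and limma on log2(FPKM + 1) gave 887 lower genes. The replicate block gave 1400 lower and 2014 higher genes, 2 of 6 libraries correlated best with their own number, and the calls of Gpx5, Ucp1, Msln and Ddx4 were lost. The 42 genes of the difference between ages became 1130 with DESeq2 and 1 with the replicate block, and 0 to 455 without 1 library. The cause of these changes was not tested.

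Directions that reversed belonged to uncalled values near 0. With library size only, limma at pseudocounts of 1 and 0.1, and scaling on the fibroblast list (chosen after seeing the data), Atp2a2 was 0.209, 0.164, 0.165 and 0.0577, Dmd 0.271, 0.348, 0.384 and 0.133, Igf1 0.236, 0.232, 0.238 and 0.0656, and Ctnnb1 0.25, 0.284, 0.285 and 0.0776. Pecam1 was 0.00705 and 0.00736 with limma. Without 1 library, Dmd reached 0.124, 0.08 and 0.0209, Esr1 −0.0229 and −0.00134, Atp2a2 0.054, Ctnnb1 0.00994 and Igf1 0.0112. List medians with library size only and limma at 1 and 0.1 were 0.248, 0.255 and 0.277 for cAMP, 0.225, 0.224 and 0.237 for TGF-beta and BMP, 0.1, 0.0969 and 0.1 for IGF, and 0.243, 0.241 and 0.254 for AMPK. With fibroblast scaling TGF-beta and BMP was 0.062 and AMPK 0.0837, and without 1 library TGF-beta and BMP was 0.0093 and Notch −0.0221. Of the 209 genes followed, 58 lost their call in the fit of 4 groups and 6 with library size only. In the fits without 1 library the fitted log2 fold changes of these genes ranged from −16.7 to 18.5, both ends at genes (Csrp3 and Akr1b7) left with no count in a group, and list medians from −8.7 to 7.35.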
